A study of Homo sapiens with 4 samples.

Results

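The D cyclins CCND1, CCND2 and CCND3, their kinases CDK4 and CDK6, and the CDK inhibitors CDKN1A, CDKN1B, CDKN1C, CDKN2A and CDKN2D were examined in a megakaryoblastic cell line after knockdown of GATA1, the transcription factor that directs erythroid and megakaryocytic development. The members were all non-control probes that carried 1 of these 10 gene names on the array, each kept apart, which gave 19 of 41000 probes. Meg-01 is an established human megakaryoblastic line. RNA from the clones GATA1 5-13 and GATA1 4-14 was compared with RNA from GATA1 Neg on 2-colour Agilent whole genome arrays, 2 arrays per clone with the dyes swapped, all on 1 slide. Each clone carried a GATA1 shRNA lentivirus and was grown out from a single soft agar colony after puromycin selection, so each knockdown line is 1 clone. GATA1 Neg was a pool of cells that received a lentivirus with a control shRNA of limited homology to human genes, and was not cloned. All lines were kept in RPMI 1640 with fetal bovine serum. The extraction text among the labels names CMK, another megakaryoblastic line, whereas every other label names Meg01.

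In G1 phase, D cyclins bind CDK4 or CDK6, and the active kinase phosphorylates the retinoblastoma protein, which releases E2F factors to switch on genes of S phase. The INK4 inhibitors (CDKN2A, CDKN2D) bind the kinases directly, whereas the CIP/KIP inhibitors (CDKN1A, CDKN1B, CDKN1C) bind cyclin and kinase complexes and block CDK2. In the megakaryocytic lineage, D cyclins are known for their part in the endomitotic cycles that make cells polyploid, and GATA1 is known to hold proliferation of precursors in check. A higher level of a cyclin transcript does not by itself tell how active the kinase was, since this also rests on protein turnover and on the inhibitors.

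Promoter sequences of RefSeq (GRCh38.p14) were matched for 7 of the 10 members, CCND3, CDK4, CDK6, CDKN1A, CDKN1B, CDKN2A and CDKN2D, with 11 start sites in all. CCND1, CCND2 and CDKN1C had no entry and were not searched, so the counts of letters do not cover them. The 250 bases before each start were searched on both strands for the GATA letters, which are GATA with A or T before it and A or G after it. Of the 11 windows, 1 held such letters, that of CDK4, 210 bases before the start, against 22.3% of 35116 promoters of the same length. The E2F letters TTTCCCGC, TTTCGCGC, TTTGCCGC and TTTGGCGC were in 0 of the 11 windows (2.79% of all promoters), and the GC box letters GGGCGG were in 8 (42.6% of all promoters). These matches are a description of letters and not of binding. The windows shown are that of CDK4, with the GATA letters in capitals, the 3 of CCND3, which had a probe on opposite sides of 0 in the clones, and the 2 of CDKN2A, whose separate starts give the p16 and p14ARF transcripts. The starts of CCND3 lie 109483 bases apart from first to last and those of CDKN2A 20467 bases.
CDK4, chr12:57752311-57752560, minus strand: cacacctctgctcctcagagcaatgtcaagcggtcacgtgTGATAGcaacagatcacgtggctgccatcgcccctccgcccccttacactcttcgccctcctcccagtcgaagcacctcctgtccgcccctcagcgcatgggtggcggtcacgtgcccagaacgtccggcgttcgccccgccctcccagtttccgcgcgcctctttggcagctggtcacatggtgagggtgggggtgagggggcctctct
CCND3 first start, chr6:42048689-42048938, minus strand: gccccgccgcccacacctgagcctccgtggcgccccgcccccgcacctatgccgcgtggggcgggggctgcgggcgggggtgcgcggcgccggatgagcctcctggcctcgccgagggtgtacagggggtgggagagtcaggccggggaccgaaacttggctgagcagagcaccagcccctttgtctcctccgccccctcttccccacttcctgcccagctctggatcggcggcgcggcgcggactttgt
CCND3 middle start, chr6:41941809-41942058, minus strand: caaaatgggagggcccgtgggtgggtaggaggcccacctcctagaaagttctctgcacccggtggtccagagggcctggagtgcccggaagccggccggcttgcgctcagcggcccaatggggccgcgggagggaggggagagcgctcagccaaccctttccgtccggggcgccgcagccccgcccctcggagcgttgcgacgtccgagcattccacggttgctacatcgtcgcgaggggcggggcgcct
CCND3 last start, chr6:41939206-41939455, minus strand: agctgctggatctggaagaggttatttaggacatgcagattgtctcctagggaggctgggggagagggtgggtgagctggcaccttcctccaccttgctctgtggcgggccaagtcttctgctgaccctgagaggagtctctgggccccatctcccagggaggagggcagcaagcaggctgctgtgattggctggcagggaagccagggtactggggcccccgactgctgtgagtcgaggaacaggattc
CDKN2A p14ARF start, chr9:21995325-21995574, minus strand: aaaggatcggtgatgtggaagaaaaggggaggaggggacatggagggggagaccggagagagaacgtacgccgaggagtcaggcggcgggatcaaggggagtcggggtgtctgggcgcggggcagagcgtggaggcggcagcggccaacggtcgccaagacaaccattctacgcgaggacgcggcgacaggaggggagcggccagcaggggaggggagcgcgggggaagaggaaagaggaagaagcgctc
CDKN2A p16 start, chr9:21974858-21975107, minus strand: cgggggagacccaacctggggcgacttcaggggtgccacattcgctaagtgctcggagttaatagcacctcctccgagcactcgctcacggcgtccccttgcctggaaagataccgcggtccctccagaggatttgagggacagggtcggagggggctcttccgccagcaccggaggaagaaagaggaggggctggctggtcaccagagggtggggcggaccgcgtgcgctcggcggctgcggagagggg

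The targeted gene, GATA1 (probe A_24_P374244), read -0.21 and -0.34 in GATA1 5-13 and -0.43 and -0.58 in GATA1 4-14 as log2 of knockdown over GATA1 Neg. All 4 values were below 0, and limma gave an adjusted p of 0.61. Of 9 megakaryocytic marker genes on the array, 5, among them GP1BA, GP9, ITGA2B and ITGB3, were well above background in GATA1 Neg on all arrays, and PF4, SELP and VWF were so on none. Of 5 lymphoid and 4 monocytic markers, CD3E, CD79A and LYZ were above it on all arrays. Between 61.6% and 66.4% of the spots of an array and channel were well above background and 0 were saturated. GATA1 Neg RNA lay on every array, so the tests leave out the spread of the control, and fewer cells that express a gene cannot be told apart from less RNA per cell.

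Transcript levels of CCND1 were higher than in GATA1 Neg in both clones, in all 3 of its probes and on 4 of 4 arrays. The increase was 1.46 to 1.67-fold in the main processing, and its size differed under other processing. CDKN1C was also higher on all arrays, by 1.39-fold. CCND2 and CCND3 were higher in GATA1 5-13, whereas in GATA1 4-14 CCND2 was near GATA1 Neg or slightly above it and 1 CCND3 probe was lower. CDK4, CDK6, CDKN1A, CDKN1B and CDKN2A had means between -0.08 and 0.12 on the log2 scale, and CDKN2D was lower in GATA1 4-14. None of the 19 probes passed an adjusted p of 0.05 in limma, as 0% of the 40974 probes tested did in either direction. At an unadjusted limma p of 0.005, 3 member probes were higher, all of CCND1, against 0.327% of all probes, and 0 were lower, against 0.574%. The study used the same cutoff on p-values from an error model of its array software. That is another measure, so the counts cannot be set side by side. At an unadjusted p under 0.05 there were 4 higher, against 3.38% of all probes, and 0 lower, against 4.04%. Well above background in both RNAs on all 4 arrays were 17 of the 19 probes, compared with 58.1% of all probes.

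**Figure D1:**
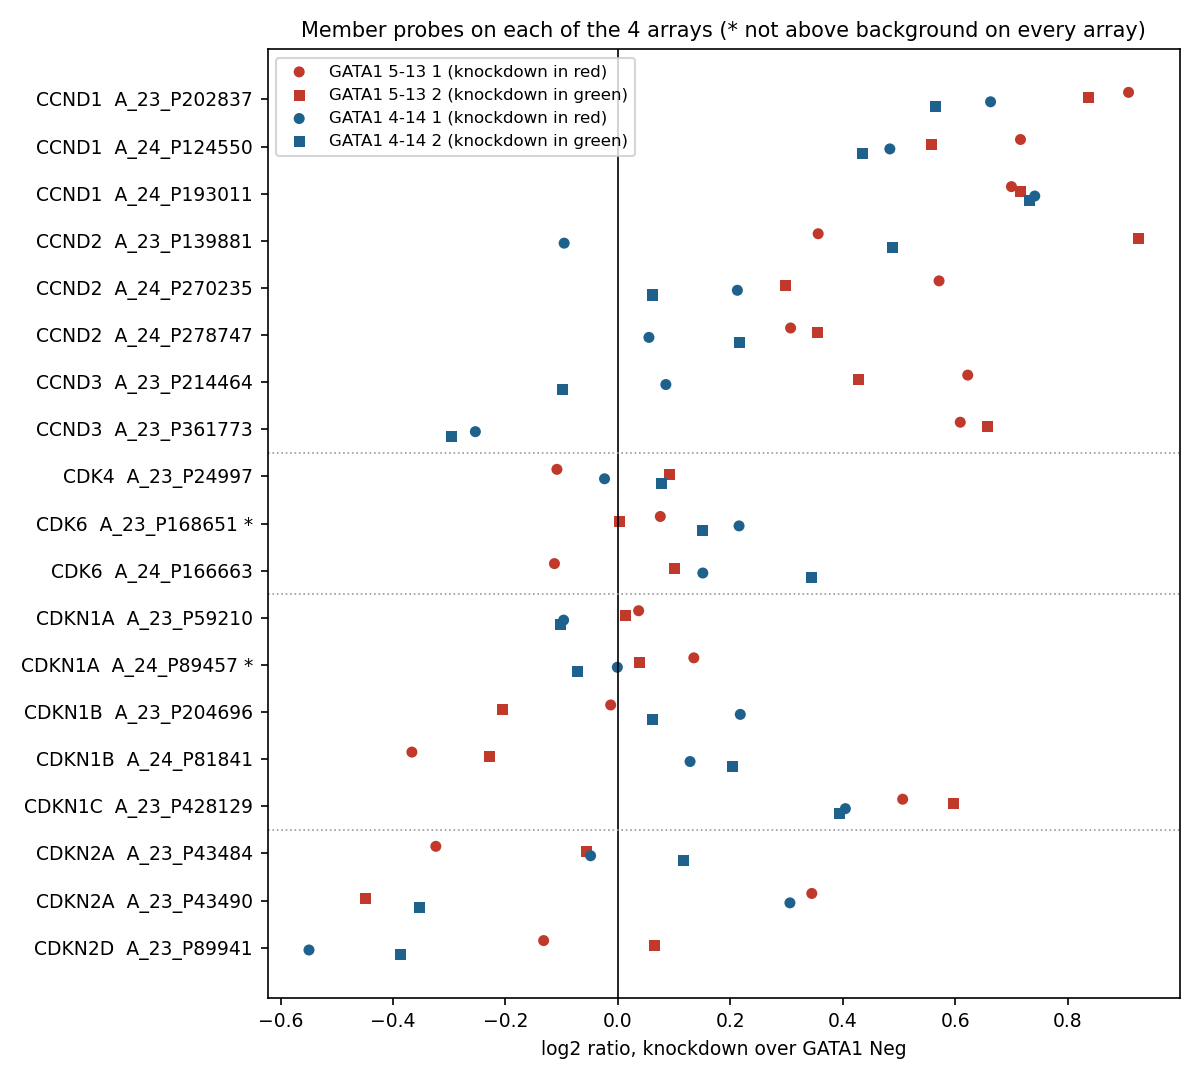
Log2 ratio of knockdown over GATA1 Neg (x axis) for each of the 19 member probes (y axis) on each array; colour gives the clone and shape the dye of the knockdown RNA, and an asterisk marks the 2 probes not above background on every array. The 12 values of CCND1 all lie between 0.44 and 0.91, and the 4 values of CCND3 probe A_23_P361773 split by clone to either side of 0.

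CCND1, a D cyclin that is often overexpressed in cancer, was measured by 3 probes that lie 9654 bases apart from first to last on chromosome 11 (hg18). Probe A_23_P202837 (chr11:69177414-69177473), printed 10 times on each array, had log2 ratios of 0.91 and 0.84 in GATA1 5-13 and of 0.66 and 0.56 in GATA1 4-14. The values of both clones lay above 0 without overlap, those of GATA1 5-13 the higher. The mean was 0.74 ± 0.18 (SD, n = 2 clones), which is 1.67-fold, with a 95% interval of 0.46 to 1.03 and an adjusted p of 0.53 (limma, unadjusted p 0.0036). Within an array, the SD between the replicate spots was 0.030 to 0.057, smaller than the SD of 0.18 between the clones.

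Probe A_24_P193011 (chr11:69167820-69167879) read 0.70 and 0.72 in GATA1 5-13 and 0.74 and 0.73 in GATA1 4-14, so that the clones were nearly alike. Its mean was 0.72 ± 0.02 (SD, n = 2 clones), 1.65-fold, with a 95% interval of 0.55 to 0.89 and an adjusted p of 0.40 (limma, unadjusted p 0.00082). Probe A_24_P124550 (chr11:69176451-69176510) read 0.72 and 0.56 in GATA1 5-13 and 0.48 and 0.44 in GATA1 4-14. Its mean was 0.55 ± 0.13 (SD, n = 2 clones), 1.46-fold, with a 95% interval of 0.32 to 0.78 and an adjusted p of 0.55 (limma, unadjusted p 0.0047). A mean of at least 0.5 with a higher level on all arrays was reached by 3 member probes, these ones, and by 0.964% of all probes.

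The signals of CCND1 can be read within a dye. For probe A_24_P193011, the net signal (mean spot intensity minus the median local background) of knockdown RNA in red was 438 for GATA1 5-13 and 446.2 for GATA1 4-14, against 230 and 242.7 for GATA1 Neg in red on the swapped arrays. In green, knockdown RNA gave 216.1 and 224.1 and GATA1 Neg 119.5 and 122. Each knockdown value was thus above every GATA1 Neg value of its dye, before any normalization. CCND1 was among the dimmer D cyclins. On the first array of GATA1 5-13, GATA1 Neg in green gave 66.46 to 249.7 for its probes. The CCND2 probes gave 2134 to 18550 there, and the CCND3 probes 159 and 7066. The size of the CCND1 ratio differed with the processing. Without background correction the means of A_23_P202837, A_24_P193011 and A_24_P124550 were 0.49, 0.37 and 0.23, and with the log ratios of Feature Extraction 0.88, 0.96 and 0.87. With the 4 arrays as 4 values and the dye orientation as a replicate block in limma, the adjusted p of A_24_P193011 was 0.019. Those of the other CCND1 probes were 0.054 and 0.058. This setting counts the arrays of a clone as independent, so these p-values do not stand for replication over clones.

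**Figure D2:**
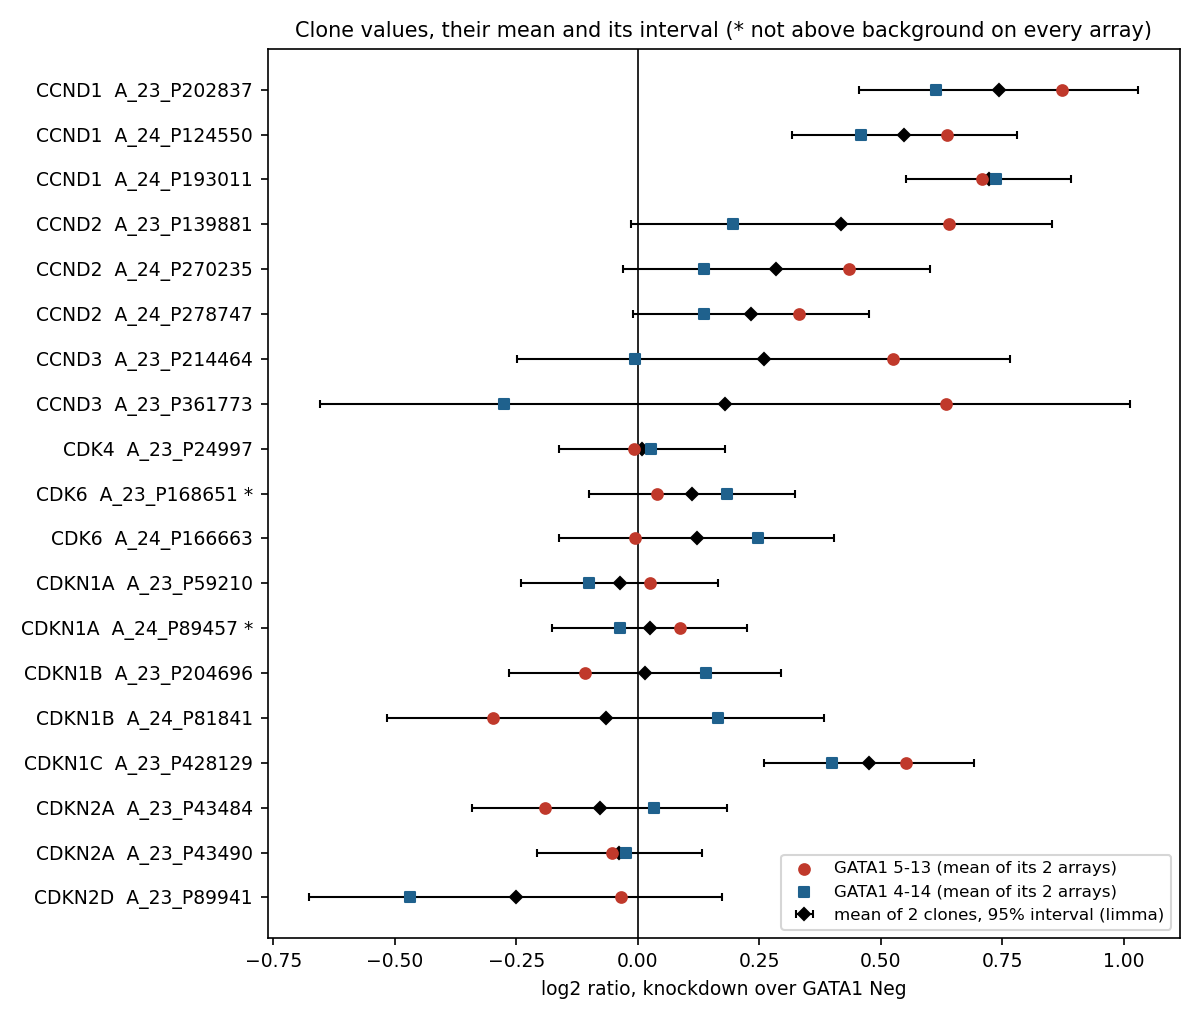
Value of each clone (mean of its 2 arrays) and the mean of both clones with its 95% interval from limma, as log2 ratio of knockdown over GATA1 Neg (x axis), for each member probe (y axis). The intervals of the 3 CCND1 probes and of CDKN1C lie above 0 and the other 15 span it.

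CCND2, the D cyclin that many blood cells use, had 3 probes spread over 26081 bases on chromosome 12. Probe A_23_P139881 read 0.36 and 0.93 in GATA1 5-13 and -0.10 and 0.49 in GATA1 4-14. In each clone the array with knockdown RNA in green gave the higher value. Probe A_24_P270235 read 0.57 and 0.30 in GATA1 5-13 and 0.21 and 0.06 in GATA1 4-14. Probe A_24_P278747 read 0.31 and 0.36 in GATA1 5-13 and 0.06 and 0.22 in GATA1 4-14. As means of a clone, all 3 probes were higher in GATA1 5-13 than in GATA1 4-14, and 11 of their 12 array values were above 0. The means were 0.42 ± 0.31, 0.29 ± 0.21 and 0.23 ± 0.14 (SD, n = 2 clones), with an adjusted p of 0.68 each (limma) and intervals that reached from -0.01 to 0.85, from -0.03 to 0.60 and from -0.01 to 0.48.

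CCND3, which takes part in lymphoid and erythroid expansion, differed between the clones. Probe A_23_P361773 (chr6:42011171-42011230 of hg18) read 0.61 and 0.66 in GATA1 5-13 and -0.25 and -0.30 in GATA1 4-14. The arrays of a clone were close to each other in both dye orientations, and the clones lay on opposite sides of 0. In red, the net signal was 25570 for GATA1 5-13 and 12570 for GATA1 4-14, beside 16060 and 15270 for GATA1 Neg on the swapped arrays. The mean of 0.18 ± 0.64 (SD, n = 2 clones) therefore had a wide interval, from -0.65 to 1.01, and an adjusted p of 0.90 (limma). Probe A_23_P214464 read 0.62 and 0.43 in GATA1 5-13 and 0.09 and -0.10 in GATA1 4-14, with a mean of 0.26 ± 0.38 (SD, n = 2 clones) and an adjusted p of 0.75 (limma). On the first array of GATA1 4-14 both of its net signals were high, 1016 for the knockdown and 497.1 for GATA1 Neg in green, where GATA1 Neg in green gave 159 on the first array of GATA1 5-13. Without that array the value of GATA1 4-14 is that of its second array, -0.10.

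Across the D cyclins, 8 of 8 probes were higher on both arrays of GATA1 5-13, against 32.8% of all probes, and 5 of 8 on both arrays of GATA1 4-14, against 28.2%. The median over these 8 probes, as log2 ratio, reached 0.64 in GATA1 5-13 but 0.17 in GATA1 4-14, whereas the medians of all probes tested were -0.0021 and 0.00017. In 7 of the 8 probes, which belong to 3 genes, the larger value was that of GATA1 5-13, as in 11 of the 19 member probes. The share among all probes was not counted. Each clone is 1 replicate, so the difference between the clones has no test. Over all 19 member probes the median of the mean was 0.12, and 7 were higher on 4 of 4 arrays, against 12.8% of all probes, while 0 were lower on 4 of 4, against 13.4%.

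**Figure D3:**
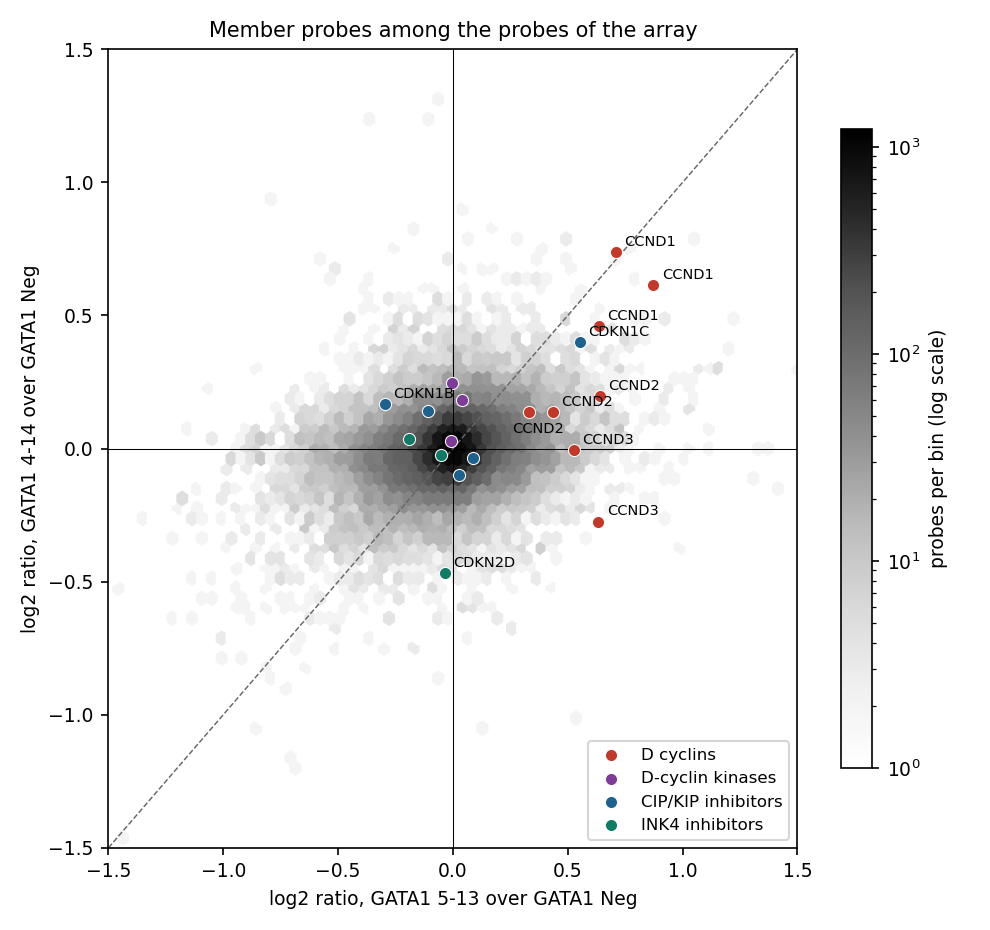
Log2 ratio over GATA1 Neg in GATA1 5-13 (x axis) against that in GATA1 4-14 (y axis) for the member probes, coloured by role, over the density of all probes (grey, log scale; probes beyond the axes are not drawn; the dashed line marks equal values). All D cyclin probes lie to the right of 0 on the x axis, and the CCND1 probes and CDKN1C lie in the upper right.

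CDK4 stayed close to GATA1 Neg, whereas CDK6 lay somewhat above it in GATA1 4-14, at 0.25 with the brighter probe A_24_P166663. CDK4 (A_23_P24997), the gene with GATA letters in its window, read -0.11 and 0.09 in GATA1 5-13 and -0.02 and 0.08 in GATA1 4-14, with a mean of 0.01 ± 0.02 (SD, n = 2 clones). Its 95% interval was -0.16 to 0.18 and the adjusted p was 0.98 (limma). CDK6, the kinase that prevails in many blood cells, read -0.11 and 0.10 in GATA1 5-13 and 0.15 and 0.34 in GATA1 4-14 with probe A_24_P166663, and both values of GATA1 4-14 lay above those of GATA1 5-13. Its mean was 0.12 ± 0.18 (SD, n = 2 clones), interval -0.16 to 0.40, with an adjusted p of 0.78 (limma). The other CDK6 probe, A_23_P168651, was well above background in either RNA on 1 of 4 arrays and had a mean of 0.11.

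Of the CIP/KIP inhibitors, CDKN1C (p57), an imprinted gene that restrains growth in development, was higher in both clones. Its probe A_23_P428129 (chr11:2861479-2861538, minus strand of hg18) read 0.51 and 0.60 in GATA1 5-13 and 0.40 and 0.39 in GATA1 4-14. All 4 values were above 0, those of GATA1 5-13 the higher. The mean was 0.48 ± 0.11 (SD, n = 2 clones), 1.39-fold, with a 95% interval of 0.26 to 0.69 and an adjusted p of 0.56 (limma, unadjusted p 0.0058). In red, the net signals of the knockdown were 814.1 and 691.5, against 539 for GATA1 Neg on both swapped arrays. Without background correction the mean was 0.31, and when every array counted as its own replicate the adjusted p was 0.014, or 0.062 with the replicate block.

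CDKN1A (p21), an inhibitor that DNA damage induces, lay close to GATA1 Neg. Probe A_23_P59210, printed 10 times, read 0.04 and 0.01 in GATA1 5-13 and -0.10 and -0.10 in GATA1 4-14, on opposite sides of 0 but close to it. Its mean was -0.04 ± 0.09 (SD, n = 2 clones), with an interval of -0.24 to 0.16 and an adjusted p of 0.91 (limma). The second probe, A_24_P89457, stayed below the background limit on all arrays and gives no direction. CDKN1B (p27), whose protein level is set largely by degradation, was lower in GATA1 5-13, at -0.37 and -0.23, and higher in GATA1 4-14, at 0.13 and 0.20, with probe A_24_P81841. Its spots had SDs of 0.023 to 0.030 within an array, whereas the SD between the clones was 0.33. The mean was -0.07, interval -0.52 to 0.38, with an adjusted p of 0.93 (limma). Probe A_23_P204696 had the same order, with -0.01 and -0.20 in GATA1 5-13 and 0.22 and 0.06 in GATA1 4-14. On opposite sides of 0 in the clones on every array were 5 of the 19 member probes, compared with 15.9% of all probes.

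**Figure D4:**
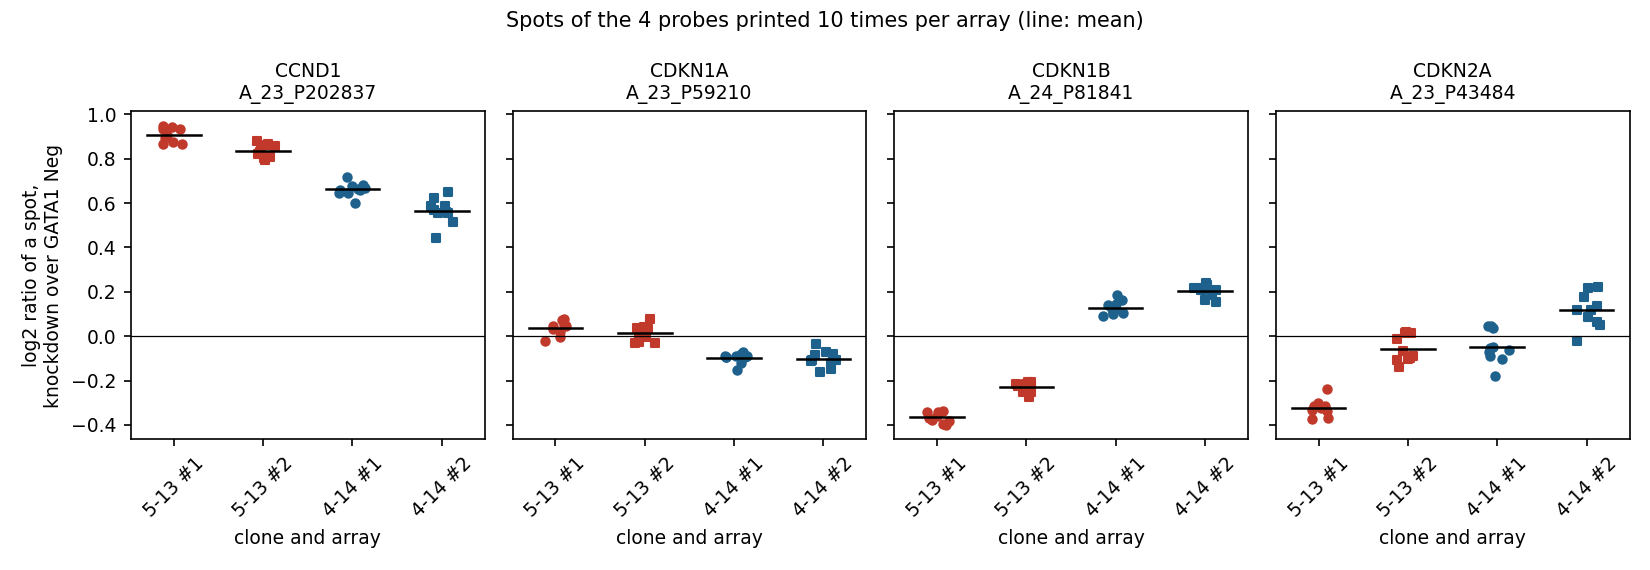
Log2 ratio of single spots (y axis, knockdown over GATA1 Neg) of the 4 member probes printed 10 times per array, by clone and array (x axis), with the mean as a line; outlier spots are left out. The spots of CCND1 lie above 0 on every array, those of CDKN1B lie below 0 in GATA1 5-13 and above 0 in GATA1 4-14, those of CDKN1A lie near 0, and those of CDKN2A lie below 0 on the first array of GATA1 5-13, with a mean of -0.32, and nearer to 0 on the other arrays.

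Among the INK4 inhibitors, CDKN2A encodes p16 and, from an upstream first exon, p14ARF. Both of its probes list transcripts of both kinds, so the values do not tell them apart. Probe A_23_P43484 read -0.32 and -0.06 in GATA1 5-13 and -0.05 and 0.12 in GATA1 4-14, with a mean of -0.08 ± 0.16 (SD, n = 2 clones) and an adjusted p of 0.85 (limma). Probe A_23_P43490 read 0.34 and -0.45 in GATA1 5-13 and 0.31 and -0.35 in GATA1 4-14. Its sign followed the dye and not the clone, and the swapped arrays left a mean of -0.04 ± 0.02 (SD, n = 2 clones). CDKN2D (p19INK4d), an inhibitor linked to terminal differentiation of megakaryocytes, read -0.13 and 0.06 in GATA1 5-13 and -0.55 and -0.39 in GATA1 4-14 with A_23_P89941. Both arrays of GATA1 4-14 lay below those of GATA1 5-13, and the mean was -0.25 ± 0.31 (SD, n = 2 clones), interval -0.68 to 0.17, with an adjusted p of 0.73 (limma).

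The genes around the D cyclins were read from lists of 47 genes with 75 probes. At an adjusted p of 0.05 and at the unadjusted 0.005, 0 were higher and 0 lower in limma. At an unadjusted p under 0.05, 4 of the 75 were higher and 0 lower, against 3.38% and 4.04% of all probes, so that the count of higher probes was close to the background. These were E2F3 (A_23_P385034), E2F5 (A_23_P31721) and TFDP2 (A_23_P166964), factors that act on E2F sites, and CDK7 (A_23_P133585) of the CDK-activating kinase. Their means were 0.24, 0.24, 0.37 and 0.18, with adjusted p of 0.56 to 0.67 (limma), and they are named here after their values were seen. E2F3 was below 0 on the first array of GATA1 4-14, at -0.01, whereas E2F5, TFDP2 and CDK7 were higher on 4 of 4 arrays. Higher on 4 of 4 arrays were 11 of the 75 (12.8% of all probes were) and lower on 4 of 4 were 7 (13.4%), with a median of the mean of 0.01.

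E2F2 (A_23_P408955), an activating E2F, read -0.93 and -0.68 in GATA1 5-13 and -0.31 and -0.10 in GATA1 4-14. This probe was below GATA1 Neg on every array, with a mean of -0.51 ± 0.42 (SD, n = 2 clones) and an adjusted p of 0.68 (limma). The other E2F2 probe, A_23_P125990, read 0.02 and -0.10 in GATA1 5-13 and 0.10 and -0.10 in GATA1 4-14, with a mean of -0.02, so the probes of this gene disagreed. Of the 21 probes of S phase genes that E2F factors drive, 14 had a mean below 0 and 0 passed the test in either direction, with medians of -0.07 in GATA1 5-13 and -0.04 in GATA1 4-14. The 6 probes of the pocket proteins, which D-cyclin kinases phosphorylate, had medians of -0.03 and 0.03.

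**Figure D5:**
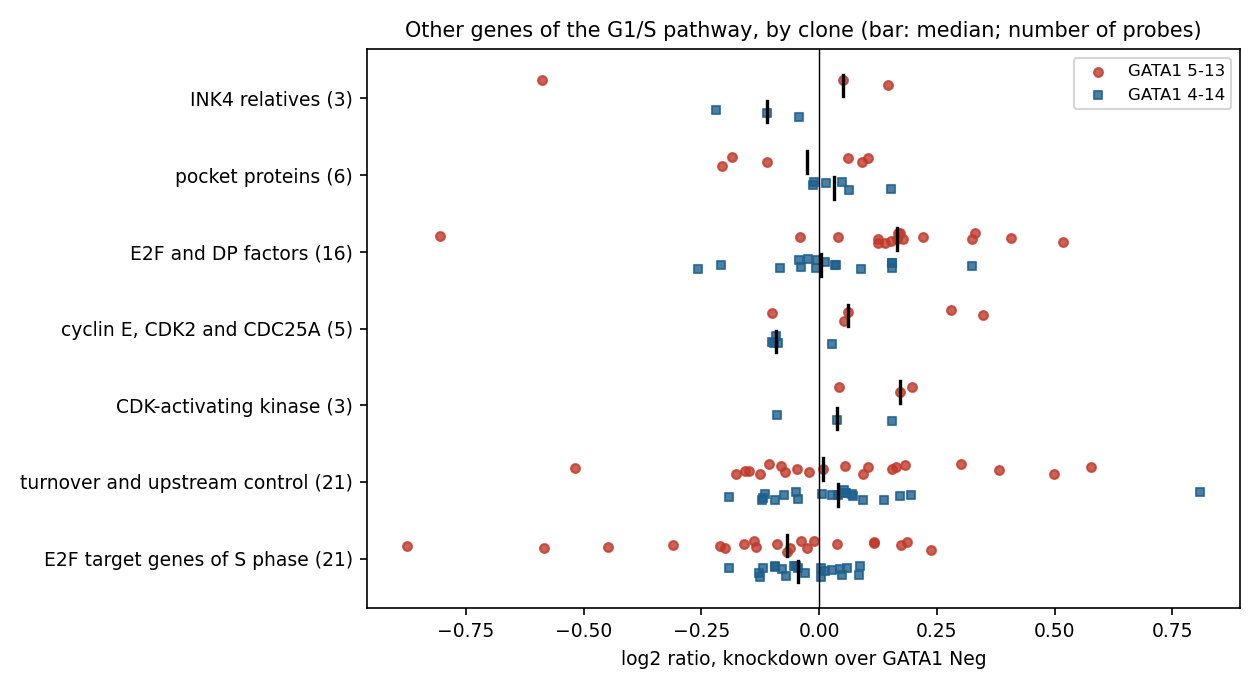
Log2 ratio of knockdown over GATA1 Neg (x axis) of the probes of each neighbouring gene list (y axis, number of probes in brackets), by clone, with the median as a bar. The list medians lie between -0.11 and 0.17, and single probes of the lists spread further in GATA1 5-13 than in GATA1 4-14 for most lists.

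When the Feature Extraction log ratios of the 4 arrays were weighted by their errors and given a normal p, which uses no spread between clones, 6 member probes were higher at an adjusted p of 0.05, those of CCND1, 1 each of CCND2 and CCND3, and CDKN1C, against 4.02% of all probes, and 0 were lower, against 4.31%. With the 4 arrays as 4 values in limma, 4 were higher (CCND1 and CDKN1C), against 1.23%, and 0 lower, against 1.8%. With the replicate block, 1 was higher, against 0.249%, and 0 were lower, against 0.408%.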

How the data were processed

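Total RNA of both knockdown clones and of GATA1 Neg was labelled with Alexa555 (green) and Alexa647 (red) and hybridized to 4 arrays. The authors deposited 1 file per array from Agilent Feature Extraction 9.5.3.1, in which the mean spot and local background of each channel are raw intensities, with probe positions on hg18. The deposited log10 ratio of each spot, made from background-subtracted and dye-normalized signals, and the error that Feature Extraction gives it were used for an alternative. A series-wide file that the authors deposited repeats these log10 ratios (largest difference 4.97e-06).

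Intensities were corrected by normexp with an offset of 50, which makes fold changes of dim probes smaller, and normalized by loess within each array (limma 3.58.1 in R 4.3.3, with data.table at version 1.17.8). Control spots and 135 to 152 outlier spots of 43376 per array were left out, spots of a probe were averaged, and ratios were turned to log2 of knockdown over GATA1 Neg. The 2 arrays of a clone were averaged, as no separate RNA extracts are named for them, and the mean of the 2 clones was tested against 0 with limma (two-sided), adjusted after Benjamini and Hochberg over 40974 probes. The number of arrays limits the precision. The members and the gene lists were chosen with earlier results of these data known. Named were all members, GATA1, and of the G1/S pathway lists each gene with a probe at an unadjusted p of 0.005 or with a mean of at least 0.5 in size and the same sign on 4 of 4 arrays. E2F3, E2F5, TFDP2 and CDK7 fall outside this rule and were named after their values were seen. The array with the same replicate number in each clone had the same dye orientation, per the labels, and deviations of arrays with the same number correlated across probes (r = 0.77). As a check of the code, the fit was run on simulated clone values with known changes. These held no dye effect and no shared control. The alternatives were other background and dye corrections, Aquantile, dim probes left out, outlier spots included, moderation with an intensity trend, 4 values in place of 2 (with or without the block), an error-weighted mean, and each array or clone left out. Some genes of the lists enter the counts and are not reported here by name. ChIP-on-chip was not analysed here.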

Additional observations from a re-analysis of the deposited data

Results flagged for a closer look

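Of the 5 member probes with values above 0 on both arrays of 1 clone and below 0 on both arrays of the other (15.9% of all probes), 4 were well above background and are given here, and the dim CDKN1A probe A_24_P89457 is left out. In these 4, the clones lay on opposite sides of GATA1 Neg. With 1 replicate per clone, these differences were not tested. GATA1 5-13 minus GATA1 4-14 was 0.91 on the log2 scale for CCND3 (A_23_P361773), 0.12 for CDKN1A (A_23_P59210), and -0.25 and -0.46 for CDKN1B (A_23_P204696 and A_24_P81841). CDKN1A lay between -0.10 and 0.04 on all arrays.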

How the results depend on the processing

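Over 283 tested combinations of a member probe and an alternative, 272 stayed on the same side of the adjusted threshold. Another 11 passed it only under the alternative, and 0 reversed a call. The main fit called 0 member probes, so no call could be lost and these counts do not measure robustness. Aquantile left the log2 ratios as in the main setting, and the series table repeats those of Feature Extraction, so their combinations are not separate checks. Under the tested alternatives, 4 probes near 0 changed sign without a call. In 1 of the clones alone, which has no test, 9 probes had another sign than the mean. Higher member probes at an adjusted p of 0.05 numbered 4 with the 4 arrays as 4 values, 1 with the replicate block and 6 with the error-weighted mean, against 0. At the unadjusted 0.005 they numbered 1 without background correction, 1 with Feature Extraction's log ratios or the series table, and 7 with the error-weighted mean, against 3. The member median of 0.12 was 0.18 with Feature Extraction's log ratios, the series table or the dim filter, 0.16 with the error-weighted mean, and 0.13 to 0.17 with 1 array left out. GATA1 stayed at -0.39 with an adjusted p of 0.049 for 4 values, 0.11 with the block, and at -0.40 with 0.0027 for the error-weighted mean. The cause of these differences was not tested.

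Over all probes, adjusted calls numbered 736 lower and 504 higher for 4 values, 167 and 102 with the replicate block, and 1768 and 1648 for the error-weighted mean, against 0. There was 1 lower call with the dim filter, 1 with the intensity trend, and 0 to 1 with 1 array left out. At the unadjusted 0.005, against 235 lower and 134 higher, there were 1238 and 971 for 4 values, 1021 and 755 with the block, and 1823 and 1713 for the error-weighted mean, with 148 lower without background correction and 134 lower with Feature Extraction's log ratios or the series table. Of the pathway lists, 1 probe was higher after adjustment for 4 values, and 2 were higher and 4 lower for the error-weighted mean. At 0.005, 2 were higher for 4 values, 1 with the block, and 2 higher and 4 lower for the error-weighted mean. Taking 4 arrays as 4 values counts the arrays of a clone as independent. No fold bound was given for a dim member probe, since those probes were dim in both RNAs.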
